A study of Mus musculus with 8 samples.

Results

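The genes described here are a group of cytosine RNA methyltransferases of the mouse, chosen by name. Its members are Nsun2, Nsun3, Nsun4, Nsun5, Nsun6, Nsun7 and Nop2 of the NOL1/NOP2/Sun domain family, and the DNA methyltransferase-related enzyme Trdmt1. They are 8 of the 54532 genes in the deposited tables. Ribosome footprints, the stretches of RNA left undigested because a ribosome covered them, and mRNA were sequenced from whole brain of male mice, 3 months old. The group labelled KO came from Nsun5 knockout mice and the group labelled WT from wild-type mice, untreated apart from anaesthesia, with 4 footprint libraries and 4 mRNA libraries each. The protocol names 5 mice per genotype of one litter and does not tie a library to an animal, so each p-value reflects the spread between libraries, which may be technical. The labels give neither the altered part of Nsun5 nor how the allele was made.

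Methylation of carbon 5 of cytosine (m5C) is found in ribosomal, transfer and messenger RNA. Each enzyme of this group has its own main substrates. Nsun5 and Nop2 modify the large ribosomal RNA of the cytoplasmic ribosome, Nsun4 modifies the small ribosomal RNA of mitochondria, and Nsun2, Nsun3, Nsun6 and Trdmt1 modify transfer RNAs. Nsun7 is the least characterised and is known in mice for a role in sperm motility.

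The mRNA libraries held 16.2 to 17.8 M (M, mega) gene-assigned counts in libraries labelled KO and 15.6 to 17.4 M in libraries labelled WT. The footprint libraries labelled KO held 0.586 to 1.30 M counts, of which protein-coding genes took 29.9 to 65.3%, and those labelled WT held 1.20 to 3.49 M, of which they took 34.7 to 65.9%. Neuronal, astrocyte, oligodendrocyte and microglial markers were present in every library. Summed mRNA of 5 oligodendrocyte markers was 4132 to 5632 CPM (counts scaled to library size) in libraries labelled KO and 6393 to 6921 CPM in libraries labelled WT, and that of 5 neuronal markers was 5927 to 6481 CPM in KO and 5055 to 5491 CPM in WT. In footprints the oligodendrocyte sum was 1224 to 1590 CPM in KO and 1741 to 1980 CPM in WT, the same direction as in mRNA. The neuronal sum was 3146 to 3571 CPM in KO and 3377 to 4689 CPM in WT. Its ranges overlapped and its median was higher in WT, the opposite direction to mRNA. The part of these marker differences in the values below was not tested. On the first principal component of the mRNA libraries, WT libraries 1 and 2 lay at 25.2 and 23.5 and the other 6 libraries between −15.1 and −4.99.

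The promoters of Nsun7 and Trdmt1 are printed because these genes had the lowest mRNA estimates of KO over WT among the members. Each run is the 250 bases before the RefSeq transcript start, from the GRCm38.p6 table, 5′ to 3′ on the gene's strand, with matches to the searched motifs in capitals. Nsun7 lies at chr5:66259648-66259897 on the plus strand and Trdmt1 at chr2:13544665-13544914 on the minus strand.
Nsun7: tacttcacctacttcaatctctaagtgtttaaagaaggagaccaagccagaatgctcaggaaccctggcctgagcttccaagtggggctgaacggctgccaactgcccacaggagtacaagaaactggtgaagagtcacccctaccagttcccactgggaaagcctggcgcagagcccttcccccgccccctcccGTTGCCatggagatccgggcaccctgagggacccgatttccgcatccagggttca
Trdmt1: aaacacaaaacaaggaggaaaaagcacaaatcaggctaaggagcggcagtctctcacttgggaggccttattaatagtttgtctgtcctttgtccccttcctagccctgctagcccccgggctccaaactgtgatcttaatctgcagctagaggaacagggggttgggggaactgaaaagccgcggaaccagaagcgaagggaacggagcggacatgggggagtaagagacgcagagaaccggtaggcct

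The motifs were the box TATAAA, the box with letters CCAAT, the RFX factor half-site GTTGCC, the E-box motif CACGTG and the ETS factor core CCGGAAG, each searched on both strands, and their matches in the printed and unprinted promoters did not overlap each other. The capitals in Nsun7 mark GTTGCC, which began 55 bases before the start and which 10.4% of the 32851 mouse promoters in the table hold on either strand. Trdmt1 held none of the 5 motifs in this window. Nop2 held CACGTG and CCGGAAG, found in 6.02% and 6.91% of promoters. Nsun3 also held CCGGAAG, as did 1 of the 2 Nsun6 windows, which in addition held CCAAT (33.8% of promoters). The Nop2 window held 30 CpG dinucleotides, the Nsun7 window 7 and the Trdmt1 window 9, against a median of 6 over all promoters. RefSeq promoters were matched for 7 of the 8 members, all except Nsun5. The matched Nsun2 window, chr13:69611766-69612015, lies inside the deposited span of Nsun2, which begins upstream of it at 69533746. A match of letters is a description of the window only.

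Nsun5, the gene named in the knockout label and the methyltransferase of a conserved cytosine in the large ribosomal RNA, was not lower in mRNA from libraries labelled KO. Nsun5 (ENSMUSG00000000916, mm10 chromosome 5, 135369953 to 135376805, plus strand, 4317 bases in the deposited length) had 102, 124, 83 and 110 mRNA counts in KO libraries 1 to 4, against 91, 82, 103 and 109 in WT libraries 1 to 4. In the authors' RPKM (read counts scaled to gene length in kilobases and to library size) these were 1.47, 1.69, 1.19 and 1.43 in KO libraries and 1.21, 1.20, 1.43 and 1.42 in WT libraries. The groups overlapped, with the highest and the lowest RPKM both in KO libraries. KO over WT came to 0.12 ± 0.15 on the log2 scale (SE, n = 4 each; adjusted p = 0.820 by edgeR), with a 95% interval from −0.21 to 0.45. The estimate ran from 0.037 without KO library 2 to 0.21 without KO library 3, and was 0.0074 without WT libraries 1 and 2. Because the targeted gene does not separate the labels, every KO over WT direction below is between libraries as labelled. Adjusted p-values below come from edgeR's quasi-likelihood test with Benjamini-Hochberg adjustment over all genes tested, unless another test is named, and fold changes are given ± SE.

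Footprints on Nsun5 were few. KO libraries 1 to 4 held 3, 0, 1 and 2 footprint counts and WT libraries 1 to 4 held 2, 11, 0 and 6. A count of 0 allows up to 3 counts, which is 1.58 CPM in KO library 2 and 1.10 CPM in WT library 3. Over the pooled libraries, 6 counts in KO made 3.15 per M protein-coding footprint counts (exact Poisson 95% interval 1.16 to 6.87). In WT, 19 counts made 4.09 per M protein-coding footprint counts (2.46 to 6.38). These intervals cover counting error only. The pooled values are scaled to protein-coding counts and the CPM limits to library size, so the pooled values and the limits are not comparable. On the CPM scale of the limits, the Nsun5 mean over libraries was 1.89 CPM in KO and 1.70 CPM in WT. The fitted log2 fold change was −0.08 ± 1.09 (SE; edgeR, adjusted p = 0.998, 95% interval −2.37 to 2.20), an interval that includes a 4-fold difference either way, so a change of that size was not detectable at this depth. Footprints were seen on Nsun5 in 3 of 4 libraries of each label.

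By the deposited coordinates, the 3′ end of Nsun5 overlaps that of Pom121, a nuclear pore gene on the opposite strand, by 665 bases. Pom121 had 9518 mRNA counts over all libraries. Whether counting used the strand is not given in the sources used here, so reads from the shared stretch cannot be told apart. A gene-wide count also does not show where within Nsun5 its reads fell.

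**Figure D1:**
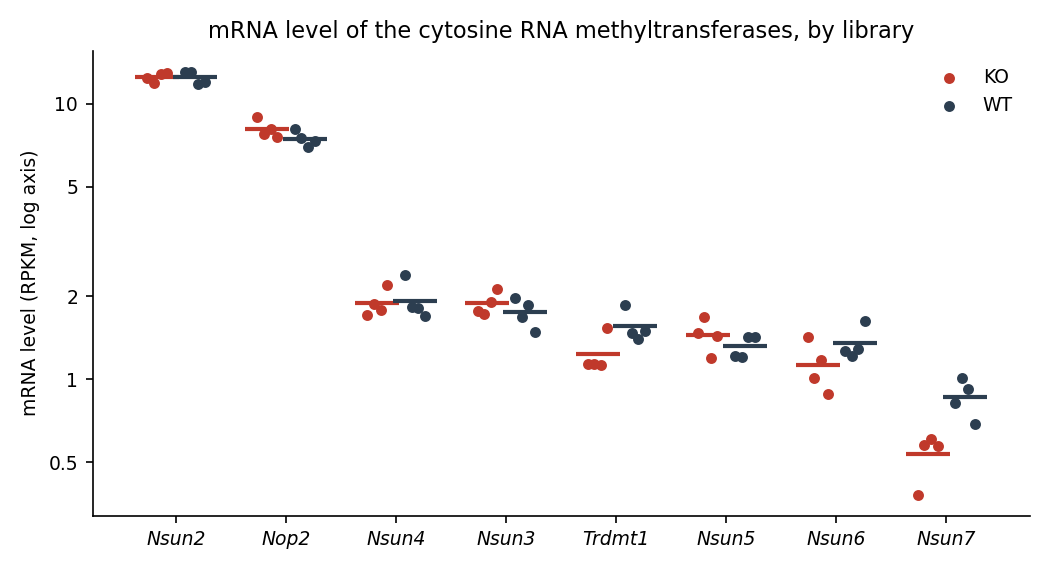
mRNA level in RPKM (vertical axis, log scale) of each member in every library. Points are libraries (KO red, left; WT dark blue, right, n = 4 each) and lines are group means; Nsun7 is the member whose KO points, 0.382 to 0.609 RPKM, all lie under its WT points.

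The other ribosomal RNA methyltransferases, Nop2 and Nsun4, did not differ in mRNA between the labels beyond their spread. Nop2, a nucleolar enzyme needed for making the large ribosomal subunit (ENSMUSG00000038279, mm10 chromosome 6, 125131909 to 125144753), had 8.96, 7.74, 8.11 and 7.60 RPKM in KO libraries, against 8.12, 7.51, 6.96 and 7.29 RPKM in WT libraries. The KO values ran slightly higher but overlapped the WT values, and the log2 fold change was 0.10 ± 0.09 (adjusted p = 0.723). Nsun4, which methylates mitochondrial ribosomal RNA together with its partner Mterf4 (ENSMUSG00000028706, mm10 chromosome 4, 116032842 to 116053876), had 1.72, 1.88, 1.78 and 2.20 RPKM in KO libraries, against 2.38, 1.83, 1.82 and 1.69 RPKM in WT libraries. WT library 1 was the highest of all 8, the groups overlapped, and the log2 fold change was −0.04 ± 0.14 (adjusted p = 0.939).

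Of the transfer RNA methyltransferases, Nsun2 and Nsun3 had mRNA estimates near 0, while Nsun6 and Trdmt1 had negative estimates that missed the threshold. Nsun2, which modifies many transfer RNAs and some mRNAs (ENSMUSG00000021595, mm10 chromosome 13, 69533746 to 69635780), had 12.37, 11.88, 12.78 and 12.92 RPKM in KO libraries, against 13.01, 13.05, 11.79 and 12.01 RPKM in WT libraries. Its log2 fold change of −0.01 ± 0.06 (adjusted p = 0.954) had the narrowest interval of the members, −0.16 to 0.13. The annotated span of Nsun2 contains Srd5a1 (1272 mRNA counts over all libraries, against 9628 for Nsun2) and part of Tent4a (7111 counts), both on the opposite strand. Nsun3, the enzyme for mitochondrial methionine transfer RNA (ENSMUSG00000050312, mm10 chromosome 16, 62732444 to 62786818), had 1.77, 1.73, 1.90 and 2.13 RPKM in KO libraries, against 1.98, 1.68, 1.86 and 1.48 RPKM in WT libraries, which gives a log2 fold change of 0.09 ± 0.13 (adjusted p = 0.844).

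Nsun6, which modifies the acceptor end of a few transfer RNAs and sites in mRNA (ENSMUSG00000026707, mm10 chromosome 2, 14995131 to 15055069), had 1.42, 1.01, 1.18 and 0.887 RPKM in KO libraries, against 1.26, 1.22, 1.29 and 1.63 RPKM in WT libraries. The groups overlapped through KO library 1, and the log2 fold change was −0.29 ± 0.17 (adjusted p = 0.591). Nsun6 overlaps Arl5b, a small GTPase gene on the opposite strand with 5638 mRNA counts, by 5675 bases. The remaining genes that overlap members, Gm17108 and A530095I07Rik in Nsun2 and Gm36930 in Nsun6, had 35, 8 and 0 mRNA counts over all libraries. Trdmt1, the enzyme of the aspartate transfer RNA anticodon loop (ENSMUSG00000026723, mm10 chromosome 2, 13509014 to 13544668), had 1.14, 1.13, 1.13 and 1.54 RPKM in KO libraries, against 1.86, 1.47, 1.41 and 1.50 RPKM in WT libraries. In Trdmt1, 3 KO libraries lay under all WT libraries and KO library 4 lay among them. The log2 fold change was −0.35 ± 0.16 (SE, n = 4 each, 95% interval −0.71 to 0.01; edgeR, adjusted p = 0.486).

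Nsun7 (ENSMUSG00000029206, mm10 chromosome 5, 66259897 to 66298026) was the member with the most separated mRNA levels. It had 33, 53, 53 and 55 mRNA counts in KO libraries 1 to 4, against 77, 86, 83 and 66 in WT libraries 1 to 4. In RPKM these were 0.382, 0.578, 0.609 and 0.574 in KO libraries and 0.823, 1.01, 0.923 and 0.690 in WT libraries. Every KO library lay under every WT library, a pattern that 3.09% of the 16062 genes under the wider filter showed. The log2 fold change was −0.69 ± 0.20 (SE, n = 4 each, 95% interval −1.13 to −0.24) and did not pass edgeR's test across all genes (adjusted p = 0.337, unadjusted 0.00621). At a mean RPKM under 1, Nsun7 entered this fit through the wider filter (filterByExpr with a minimum count of 10).

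Genes of motile cilia, the beating organelles of ependymal cells and sperm tails, also had negative mRNA estimates. The 16 gene names of this list were written down after the mRNA values had been seen, so their counts are a description and no support. Of 14 list genes kept by the wider filter, 14 had negative estimates and 0 passed edgeR. Their median log2 fold change was −0.95, against −0.01 over all 16062 genes. Under the main filter 9 list genes were tested, of which 9 had negative estimates and 0 passed. A gene can enter either filter through the levels of KO or of WT libraries alone, so the filters may favour genes that differ. Their summed mRNA was 42.8, 25.2, 46.1 and 41.6 CPM in KO libraries 1 to 4, against 55.6, 82.1, 59.8 and 61.7 CPM in WT libraries 1 to 4. The groups did not overlap, and the part of this difference in the Nsun7 values was not tested. In footprints the same list summed to 21.1 to 49.1 CPM in KO libraries and 29.0 to 40.8 CPM in WT libraries, which overlap. The KO median was the higher one there, at 42.8 CPM against 32.6 CPM in WT, the opposite direction to mRNA. These footprint sums rest on few counts, as 3 counts in KO library 3 already make 5.77 CPM. Of the 14 list genes fitted in footprints under the wider filter, 9 had positive and 5 negative estimates, and 0 passed edgeR. In bulk tissue, fewer cells of a type and less RNA per cell cannot be told apart. Libraries also differed widely in choroid plexus markers. Summed mRNA of 3 such markers was 40.2 to 1148 CPM in KO libraries and 292 to 1117 CPM in WT libraries. The part of this spread in the cilia and Nsun7 values was not tested.

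**Figure D2:**
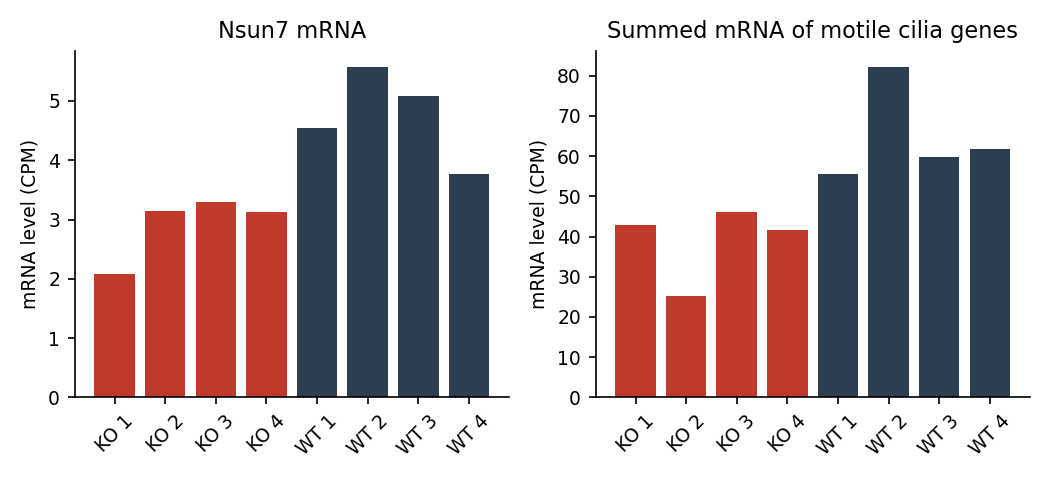
mRNA of Nsun7 (left panel) and summed mRNA of the motile cilia list (right panel), both in CPM from 0, as 1 bar per library (KO red, WT dark blue). In both panels all 4 KO bars are shorter than all 4 WT bars; KO library 1 is lowest for Nsun7 and KO library 2 is lowest for the list.

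Counted together, none of the 8 members passed the mRNA test. Under the filter of the main fit (mean RPKM of at least 1, 13058 genes), 7 members were tested and 0 passed at an adjusted p under 0.05, as did 0.00% of all genes. At an unadjusted p under 0.05 there were 0 of the 7 members, against 10.5% of all genes. Under the wider filter, 0 of 8 members and 0.00% of genes passed, and 1 of 8 (Nsun7) against 10.7% of genes had an unadjusted p under 0.05. DESeq2 called 87 of the 13058 genes, 0 of them members. It gave no adjusted p there for Nsun3, Nsun4, Nsun5, Nsun6 and Trdmt1, and Nsun7 was outside this filter. Those members could therefore not be called, and only Nop2 and Nsun2 could. The median log2 fold change was −0.02 over the 8 members and −0.01 over all 16062 genes.

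Set per length, the mRNA levels of the members fell into steps over the 8 libraries. Nsun2 was highest, at a mean of 12.5 RPKM, followed by Nop2 at 7.79, Nsun4 at 1.91, Nsun3 at 1.82, Trdmt1 at 1.40, Nsun5 at 1.38, Nsun6 at 1.24 and Nsun7 at 0.699 RPKM. Each neighbouring pair was compared within libraries by an exact two-sided sign-flip permutation test on log2 RPKM, adjusted over the 7 pairs, for which the smallest raw p is 0.00781. Nsun2 lay above Nop2, Nop2 above Nsun4 and Nsun6 above Nsun7 in 8 of 8 libraries each (adjusted p = 0.0182 for each, exact permutation test). Nsun3 lay above Trdmt1 in 7 of 8 libraries (adjusted p = 0.0273, exact permutation test). Nsun4 and Nsun3 did not differ beyond their spread (adjusted p = 0.230), nor did Trdmt1 and Nsun5 (0.961) or Nsun5 and Nsun6 (0.355), by the same exact permutation test. The mean of Nsun5 over both labels thus lay in the lower part of the family, not separated from Trdmt1 or Nsun6. Its rank among them changed with the label. In WT libraries alone the mean of Nsun5 was 1.32 RPKM, under Nsun6 at 1.35 RPKM. In KO libraries alone it was 1.45 RPKM, above Trdmt1 at 1.24 RPKM.

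Genes whose mRNA profile over the 8 libraries was close to that of Nsun5 were Ndufa4, Abhd16a, Nkiras1 and Leprotl1. Likeness was the root mean square difference of centred log2 CPM over 8 mRNA libraries, among 11821 protein-coding genes. It was 0.048 for Ndufa4, a subunit of the respiratory chain, and 0.057 for Leprotl1, against a median of 0.215 over all candidates. The deviations of Nsun5 itself had a root mean square of 0.160 on that scale. At 82 to 124 Nsun5 mRNA counts per library, counting error enters these deviations, and its share was not tested. The named genes were picked as the closest of all candidates, so their likeness is a description and no sign of shared regulation.

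Footprints on the members did not differ between the labels beyond their spread, at depths that leave wide intervals. Only Nsun2 and Nop2 had enough footprints for the main filter. Nop2 had 8.91, 5.46, 4.64 and 7.84 footprint RPKM in KO libraries, against 9.16, 4.17, 5.15 and 5.18 footprint RPKM in WT libraries. The ranges of the labels overlap almost fully, and the difference was 0.20 ± 0.33 on the log2 scale (SE, n = 4 each; adjusted p = 0.964 by edgeR). Nsun2 had 1.64, 2.64, 3.52 and 3.29 footprint RPKM in KO libraries, against 4.14, 2.38, 1.94 and 5.32 footprint RPKM in WT libraries. WT libraries 4 and 1 were highest for Nsun2 and KO library 1 was lowest, with overlap between the labels, and its log2 fold change was −0.33 ± 0.37 (adjusted p = 0.940). It was −0.52 when WT library 3 was left out and −0.016 when WT library 4 was.

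The other 6 members were fitted under a wider filter, a mean count of at least 1. Nsun6 stood at 8, 11, 2 and 3 footprint counts in KO libraries, against 6, 3, 6 and 10 in WT libraries. In CPM it had 9.77, 5.81, 3.84 and 2.94 in KO libraries and 3.40, 0.930, 2.20 and 3.77 in WT libraries, where KO library 4 lay among the WT libraries and the other 3 above them. Its log2 fold change was 1.11 ± 0.68 (SE, 95% interval −0.30 to 2.53; edgeR, adjusted p = 0.892). Trdmt1 had 0, 7, 0 and 3 footprint counts in KO libraries, against 2, 9, 12 and 8 in WT libraries, which gives a log2 fold change of −0.51 ± 0.88 (adjusted p = 0.978). Nsun7 had 2, 4, 1 and 2 footprint counts in KO libraries and 2, 12, 0 and 5 in WT libraries, which gives a log2 fold change of 0.25 ± 0.99 (adjusted p = 0.992). A footprint difference of the size seen in Nsun7 mRNA was not detectable at this depth. Nsun3 and Nsun4 had fold changes of −0.06 ± 0.63 and −0.11 ± 0.43 on the log2 scale.

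In footprints 0 of 2 members passed in the main fit, as did 0.00% of 8476 genes, and 0 of 2 had an unadjusted p under 0.05, against 5.52% of genes. DESeq2 called 4 genes, 0 of them members. Under the wider filter 0 of 8 members passed (0.00% of 14921 genes), and 0 of 8 had an unadjusted p under 0.05, against 5.30% of genes.

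**Figure D3:**
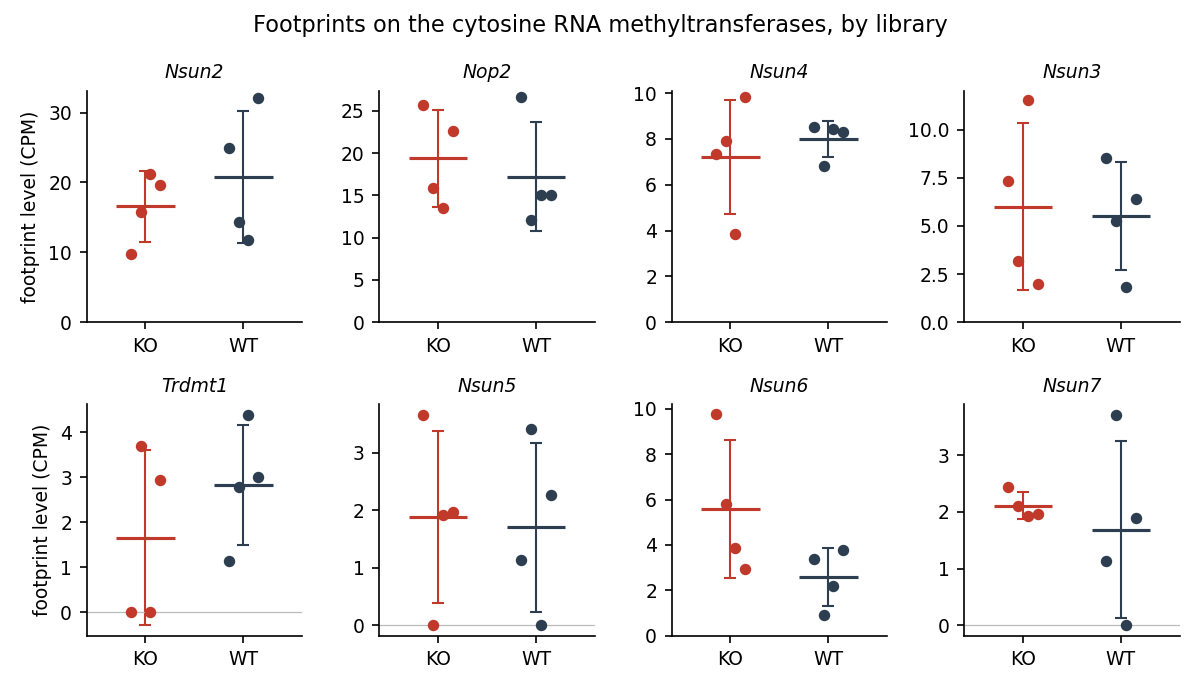
Footprint level of each member in CPM (vertical axes, separate scales), with 1 point per library, a line at the mean and bars of 1 SD (n = 4 for KO, left, and WT, right). The points of both labels overlap in every panel, and Nsun5, Trdmt1 and Nsun7 have libraries at 0.

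Translational efficiency, the footprint level relative to the mRNA level of the same gene, was compared between the labels by the interaction of genotype and library kind. Nop2 differed by 0.13 ± 0.31 (adjusted p = 0.920), Nsun2 by −0.30 ± 0.33 (0.796) and Nsun4 by 0.00 ± 0.36 (0.998) on the log2 scale, all from the main fit of 9673 genes. Nsun6 had the largest estimate among the members under the wider filter, 1.45 ± 0.57 (SE, 95% interval 0.29 to 2.62), at an unadjusted p of 0.0168 and an adjusted p of 0.340 by edgeR. It combined a negative mRNA estimate with a positive footprint estimate, each short of its threshold. Nsun5 itself had −0.45 ± 0.92 (adjusted p = 0.898), with an interval from −2.34 to 1.43. Nsun7 had 0.90 ± 0.82, Nsun3 −0.24 ± 0.54 and Trdmt1 −0.06 ± 0.69.

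None of the 3 members in the main fit passed for translational efficiency (0.00% of genes), and 0 of 3 had an unadjusted p under 0.05, against 10.9% of genes. DESeq2 called 150 genes, 0 of them members. Under the wider filter 0 of 8 members passed (0.00% of 14140 genes), and 1 of 8, Nsun6, had an unadjusted p under 0.05, against 11.3% of genes.

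**Figure D4:**
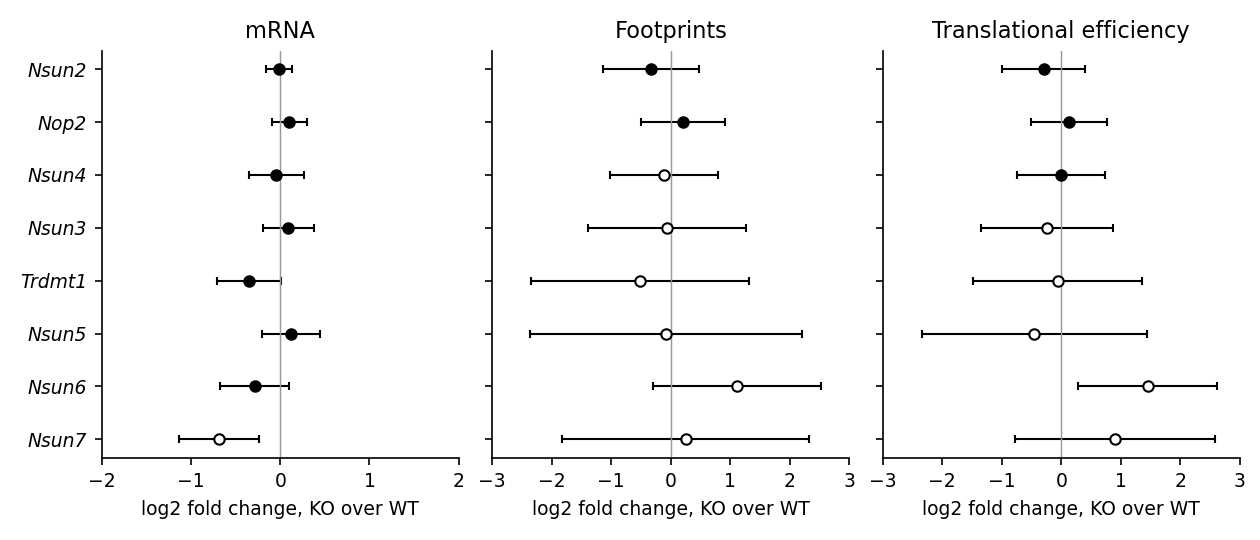
Log2 fold change of KO over WT with its 95% interval for mRNA, footprints and translational efficiency (horizontal axes; mRNA has a narrower scale). Filled points come from the main fit and open points from the wider filter; the mRNA interval of Nsun7 (−1.13 to −0.24) and the translational efficiency interval of Nsun6 (0.29 to 2.62) are the ones that leave out 0 before adjustment.

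Over both labels together, the members differed in how many footprints they carried relative to mRNA. The value is a log2 ratio of footprint over mRNA, each scaled to its own libraries, so 0 stands near the typical protein-coding gene. It was fitted on counts. The authors' RPKM were scaled within each kind of library, so the footprint RPKM and mRNA RPKM of a gene share no scale and do not give this ratio. Nop2 had more footprints relative to mRNA: 6.31 footprint RPKM and 7.79 mRNA RPKM on average, a log2 value of 0.80 ± 0.15 (SE, 8 libraries of each kind; edgeR, adjusted p = 6.66e-05). Nsun2 had fewer, with 3.11 footprint RPKM and 12.5 mRNA RPKM, a log2 value of −0.86 ± 0.16 (adjusted p = 3.74e-05). Nsun4 averaged 1.22 footprint RPKM and 1.91 mRNA RPKM, with a log2 value of 0.52 ± 0.18 (adjusted p = 0.0138). The Nsun4 call was lost with WT libraries alone (adjusted p = 0.0666) and with KO libraries alone (0.185). Nsun2, the member with the highest mRNA level, averaged a lower footprint level per length than Nop2. Without scaling to length their footprint means were close, at 18.7 CPM for Nsun2 and 18.3 CPM for Nop2. The deposited lengths are 5737 bases for Nsun2 and 2772 bases for Nop2.

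Among the 9454 protein-coding genes of the main fit, 33.6% were higher and 33.7% lower in footprints, so the 2 higher and 1 lower of 3 members are near the background. Nop2 stood at the 84.2 percentile of these genes and Nsun2 at the 16.8 percentile. Under the wider filter of 13379 genes, 2 of 8 members were higher (28.0% of genes) and 1 of 8 lower (31.5% of genes). The other 5 members did not pass: Nsun5 had −0.70 ± 0.41 (adjusted p = 0.143), and Nsun3, Nsun6, Nsun7 and Trdmt1 lay between 0.01 and 0.29. Without WT library 2, which held 11 of the 25 Nsun5 footprints, the Nsun5 value was −1.16 (adjusted p = 0.0394). Counts cover the whole annotated gene, and coding and untranslated parts were not separated.

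**Figure D5:**
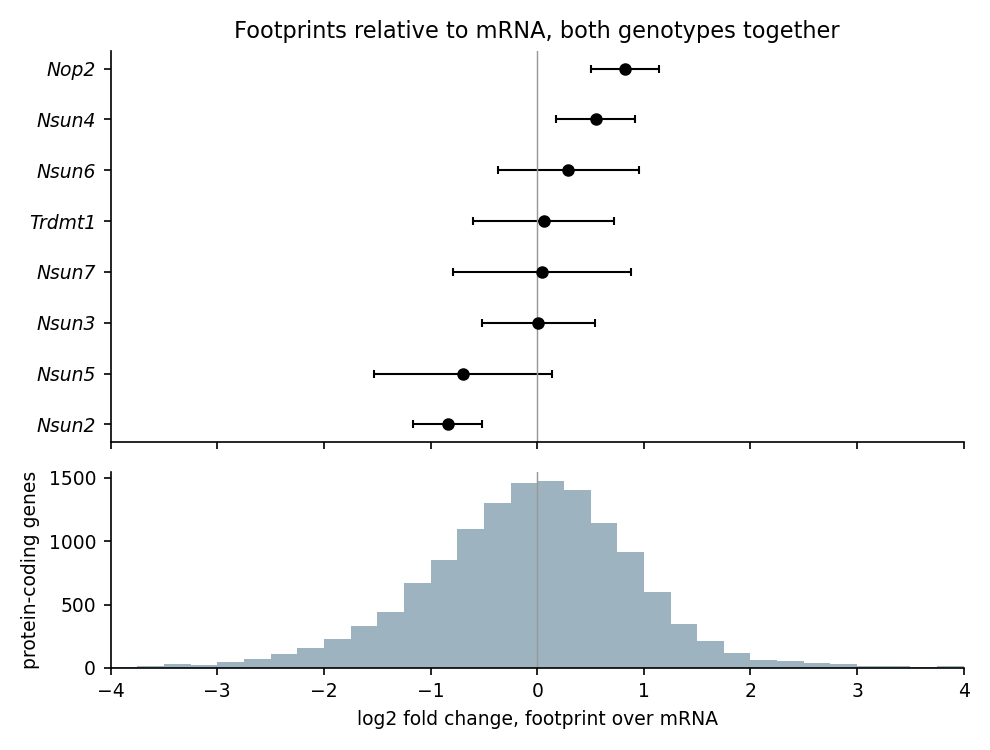
Upper panel, log2 ratio of footprint over mRNA (horizontal axis) with its 95% interval for each member over all 8 libraries of each kind, from the wider filter; lower panel, number of protein-coding genes by the same ratio. Nop2 and Nsun4 lie right of 0 and Nsun2 left of it with intervals that leave out 0, and all 8 members lie within the bulk of the genes.

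None of the genes fixed in lists around these enzymes passed the mRNA test. Over 5 lists (m5C readers and oxidases, other cytosine-modifying RNA enzymes and partners, other ribosomal RNA base modification enzymes, DNA cytosine methyltransferases, and transfer RNA cleavage and queuosine), 28 genes were tested in mRNA. Of these 12 had positive and 16 negative estimates, 0 passed edgeR, and 2 had an unadjusted p under 0.05, against 10.5% of all genes. Mterf4, the mitochondrial partner of Nsun4, had 2.40 ± 0.165 RPKM in KO libraries and 1.90 ± 0.165 RPKM in WT libraries (SD, n = 4 each). Its KO libraries all lay above its WT libraries, as for 2.50% of 16062 genes, and the log2 fold change was 0.32 ± 0.11 (SE; adjusted p = 0.406 by edgeR). Fmr1, the fragile X protein and a reader of m5C, had 10.7 ± 0.810 RPKM in KO libraries and 9.45 ± 0.494 RPKM in WT libraries, which overlap, with 0.16 ± 0.07 on the log2 scale (adjusted p = 0.466 by edgeR).

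Among the m5C readers and oxidases, 7 of 8 were tested, with a median log2 fold change of −0.02. Srsf2, a splicing factor, had −0.17 ± 0.09, Tet3, a dioxygenase that oxidises methylcytosine, 0.20 ± 0.11, and Ybx1, a cytoplasmic m5C reader, −0.07 ± 0.12. Among the partners, Mettl2, a transfer RNA 3-methylcytosine enzyme, had −0.21 ± 0.12. Mettl5, which methylates an adenine of the small ribosomal RNA, had −0.31 ± 0.17. Dnmt1 and Dnmt3a, the maintenance and a de novo DNA methyltransferase, had 0.03 ± 0.08 and −0.03 ± 0.09. Ang, a ribonuclease that cleaves transfer RNAs at the anticodon, a cut that Trdmt1 methylation hinders, had −0.39 ± 0.27 (adjusted p = 0.656). In footprints 13 genes of the lists were tested and in translational efficiency 20, with 0 passing edgeR in either. At an unadjusted p under 0.05 there was 1 of the 13 in footprints, against 5.52% of all genes. In translational efficiency there were 4 of the 20, against 10.9% of all genes.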

How the data were processed

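The deposited table gives raw counts of every gene class in 8 footprint and 8 mRNA libraries of matching names, without normalization by the authors. The deposited RPKM were made by the authors from these counts: each column's counts, lengths and RPKM imply a single library size, which follows size factors within each kind of library. The submitters' processing notes name TopHat2 and mm10, with no role; the counting program and annotation release are not given in the sources used here.

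The tests used edgeR 4.0.16 under R 4.3.3 (counts with TMM library sizes, quasi-likelihood test, Benjamini-Hochberg over all genes tested, threshold 0.05). Genes entered at a mean mRNA RPKM of at least 1, by filterByExpr (minimum count 10) in footprints, and with both kinds reaching a mean RPKM of 1 for translational efficiency and for footprint against mRNA. Wider filters (filterByExpr for mRNA; a mean count of at least 1 elsewhere) gave values for the members these left out. Alternatives were DESeq2 1.42.0, limma 3.58.1 on log2 of the authors' RPKM plus 0.1 or 1, relative log expression scaling, other filters, a replicate block and left-out libraries. The scripts were tested on simulated data.

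The members and lists were chosen with earlier results of these data known. Named besides the members were up to 4 genes per list with the lowest unadjusted mRNA p, the 5 closest to Nsun5 in mRNA profile (1 of them is not reported here), and genes overlapping a member. Differences in depth make footprint values less precise than mRNA values.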

Additional observations from a re-analysis of the deposited data

Results flagged for a closer look

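In 3 of 32 groups of 4 libraries (8 members, both labels, both kinds of library), 1 library lay far from the other 3 relative to the group's range. Chance gives about 1 such group in 20. Trdmt1 mRNA was 1.54 RPKM in KO library 4, against 1.13 to 1.14 RPKM in the other KO libraries. Without that library the Trdmt1 log2 fold change of KO over WT was −0.48, against −0.35 with it. Nsun7 mRNA was 0.382 RPKM in KO library 1, against 0.574 to 0.609 RPKM in the other KO libraries. Without it the Nsun7 log2 fold change was −0.56, against −0.69 with it. Leaving out the lowest KO library could not undo the separation of the labels, so that separation was not tested by this step. Nsun4 footprints were 1.09 RPKM in WT library 2, against 1.32 to 1.35 RPKM in the other WT libraries.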

How the results depend on the processing

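No member passed for KO against WT under any alternative that gave an adjusted p, the lowest being 0.155 in mRNA (Nsun7), 0.761 in footprints (Nsun6) and 0.0944 in translational efficiency (Nsun6). DESeq2 gave no adjusted p in mRNA for Nsun3, Nsun4, Nsun5, Nsun6 and Trdmt1. The Nsun7 mRNA value ran from −0.78 to −0.28 and the Nsun6 translational efficiency value from 1.17 to 1.65. Over all genes, DESeq2 called 87 in mRNA, 4 in footprints and 150 in translational efficiency where edgeR called 0; footprints with protein-coding genes only gave 3 by edgeR. Leaving out 1 library at a time gave 0 to 2 calls in mRNA (2 without KO replicate 4) and 0 to 4 in translational efficiency. The cause was not tested. The order of mRNA levels kept its 4 separated pairs under both alternatives.

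Same-numbered KO and WT libraries deviated together at r = −0.285 to 0.0280 in mRNA and −0.236 to 0.0671 in footprints, so the numbers do not pair them. For mRNA and footprints the replicate block was the library number. For translational efficiency and footprint over mRNA it joined the footprint and the mRNA library of the same name. These libraries of the same name deviated together at r = −0.101 to 0.173. Under the main filters the replicate block called 0 genes in mRNA and in footprints and 5 in translational efficiency. Under the wider filters it called 0, 11 and 21, where the fit without it called 0, and no member was among them. With the replicate block the footprint value of Nsun5 was 0.018, the translational efficiency value of Nsun4 −0.068, and the footprint over mRNA values of Nsun7 and Trdmt1 −0.037 and −0.061, each with its sign turned, and the Nsun4 footprint over mRNA call was lost (adjusted p = 0.0659).

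Other signs turned as follows, in values that did not pass in the main fit. In mRNA, Nsun2 was 0.0035 and 0.0033 with limma (pseudocounts 0.1 and 1) and 0.055 without WT libraries 1 and 2, where Nsun4 was 0.10. In footprints, Nsun5 was 0.031 with DESeq2 and 0.13 and 0.045 with limma, and Nsun3 was 0.0094, 0.016 and 0.030. In translational efficiency without WT libraries 1 and 2, Nsun5 was 0.34, Nsun3 0.047 and Nsun4 −0.21, and with a mean count of at least 1 Nsun4 was −0.038. For footprint over mRNA, Nsun3 was −0.14 in KO libraries alone, while in WT libraries alone Nsun6 was −0.34 and Nsun7 −0.25. Nsun6 in KO libraries alone was 1.11 (adjusted p = 0.0473).

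Leaving out 1 library at a time moved these log2 values across 0. In mRNA, Nsun2 ran from −0.038 to 0.0099 and Nsun4 from −0.12 to 0.077. In footprints, Nsun5 ran from −0.74 to 0.55, Nsun3 from −0.48 to 0.23, Nsun4 from −0.26 to 0.039 and Nsun7 from −0.15 to 1.01. In translational efficiency, Nsun5 ran from −1.13 to 0.42, Nop2 from −0.022 to 0.33, Nsun2 from −0.48 to 0.048, Nsun3 from −0.60 to 0.093, Nsun4 from −0.090 to 0.087 and Trdmt1 from −0.95 to 0.25. For footprint over mRNA, Nsun3 ran from −0.12 to 0.18, Nsun7 from −0.23 to 0.36 and Trdmt1 from −0.14 to 0.24.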
